A study of Mus musculus with 8 samples.

Results

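The genes described are 10 transcription factors of the granulocyte and monocyte lineages: Cebpa, Cebpb, Cebpd, Cebpe, Spi1, Irf8, Gfi1, Klf4, Id2 and Myb. They were picked by name, from what is known of blood formation and with earlier results of these data known. Each was found once, by its Ensembl identifier, among the 48795 genes of the count table. All 10 passed the filter on low counts, as did 14178 genes in all, and their counts ran from 96 to 23390 per library. The RNA came from bone marrow LSK cells (sorted for Sca-1 and c-Kit and against markers of mature lineages, a fraction rich in stem and early progenitor cells) of C57BL/6 mice. Every mouse carried chronic myeloid leukaemia (CML), induced 10 weeks earlier. The 4 control libraries came from cre-negative mice and the 4 libraries called deleted from cre-positive, Sirt1-deleted mice, and the design text calls them biological replicates. The leukaemia allele, the promoter that drives cre and the age of the animals are not stated in the labels.

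Granulocytes and monocytes arise from a shared progenitor under a small network of transcription factors. PU.1 (Spi1) and C/EBP alpha (Cebpa) open myeloid genes in that progenitor. C/EBP epsilon and GFI1 then drive granule formation and neutrophil maturation, while IRF8 and KLF4 favour monocytes and dendritic cells. MYB keeps progenitors dividing and immature. In CML, the BCR-ABL kinase expands this myeloid output from stem cells onward.

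No factor passed the edgeR test across all genes. Cebpb, Cebpd, Cebpe, Spi1 and Id2 had lower means in Sirt1-deleted cells, with log2 fold changes from -1.46 to -0.55, and Myb had a higher mean, at 0.38. Irf8 had a positive value of 0.44. The groups overlapped for Irf8 and also for Cebpb, Cebpd, Cebpe and Spi1. Cebpa, Gfi1 and Klf4 lay between 0.01 and 0.16, and turned sign in other fits. By the edgeR quasi-likelihood test, adjusted over all genes, 0 of the 10 were called, where 0.0846% of all genes were (0.0494% higher and 0.0353% lower). DESeq2 called 2 of the 10 (Spi1 and Id2, both lower; 8.87% of all genes), and limma-voom with quality weights called the same 2 (8.03%). At an unadjusted p under 0.05 there were 6 of the 10, 5 lower and 1 higher, against 16.2% of all genes. Negative values were as many as positive ones, 5 each, where 46.1% of all genes were negative. The median log2 fold change was -0.27 over the 10 and 0.062 over all tested genes. Fold changes are deleted over control, so a negative value means lower in the deleted libraries.

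The libraries held 18252562 to 34280925 gene counts and 15316 to 20342 genes with at least 1 count. Sirt1 itself did not separate the groups: 147 to 498 of its counts were found per control and 218 to 441 per deleted library (-0.26 ± 0.39 SE on the log2 scale, edgeR adjusted p = 0.797). A gene-wide count cannot show a missing exon, so it does not check the labels. The first digit of the library titles differs between the groups, so whatever it marks cannot be told apart from genotype. Of the sort markers, Kit was at 32.4 to 44.0 CPM (counts per 1000000 library counts) in controls and 108 to 157 in deleted libraries, and Ly6a, which encodes Sca-1, at 232 to 780.2 and 119 to 224. Transcripts of lineages that the sort removes were also present. Ly6g was at 4.93 to 13.2 and 0.464 to 5.67 CPM, and Cd3e at 29.2 to 39.6 and 0.477 to 26.6. In RNA from a cell mixture, fewer cells of a type and less RNA per cell cannot be told apart.

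The 300 bases around the start of 3 of the genes are shown because these genes stand for the patterns that follow: Cebpb had the highest level per kilobase in controls, and Id2 and Myb were the members whose groups did not overlap. Each window runs from 250 bases before to 50 bases after the start of a RefSeq transcript, on the gene's own strand, on GRCm38.p6, and 7 of the 10 factors have at least 1 such window there. The Cebpb window is chr2:167688665-167688964 on the plus strand, the Id2 window chr12:25096043-25096342 on the minus strand, and the Myb window chr10:21160935-21161234 on the minus strand. The Id2 window lies inside the GENCODE span of the gene given with its values, whose outermost start is further upstream. Capitals mark matches, on either strand, to 6 motifs. These were TTNNGCAA for the C/EBP proteins, AGATAA for the red cell factors of the Gata family, GAGGAA for the ETS family that includes PU.1, TGACG as the core of the cyclic AMP response element, CANNTG as the E-box, and AACGG for MYB.
Cebpb: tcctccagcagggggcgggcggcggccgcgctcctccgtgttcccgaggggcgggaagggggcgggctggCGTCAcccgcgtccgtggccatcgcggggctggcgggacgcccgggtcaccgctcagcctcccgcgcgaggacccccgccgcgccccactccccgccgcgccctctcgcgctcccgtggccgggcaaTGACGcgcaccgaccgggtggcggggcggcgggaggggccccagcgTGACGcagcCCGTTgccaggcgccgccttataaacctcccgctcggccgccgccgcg
Id2: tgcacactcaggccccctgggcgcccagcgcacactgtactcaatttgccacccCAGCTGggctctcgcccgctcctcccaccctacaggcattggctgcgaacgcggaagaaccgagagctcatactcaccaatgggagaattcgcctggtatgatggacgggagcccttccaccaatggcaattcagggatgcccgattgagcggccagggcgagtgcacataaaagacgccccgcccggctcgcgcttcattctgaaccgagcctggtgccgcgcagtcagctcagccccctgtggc
Myb: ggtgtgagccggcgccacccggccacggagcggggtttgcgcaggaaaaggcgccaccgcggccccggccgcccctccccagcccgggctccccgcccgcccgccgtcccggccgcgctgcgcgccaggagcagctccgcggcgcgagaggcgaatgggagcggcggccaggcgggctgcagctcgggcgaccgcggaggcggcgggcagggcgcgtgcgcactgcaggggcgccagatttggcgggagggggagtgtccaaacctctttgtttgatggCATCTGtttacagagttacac
Cebpb held 3 TGACG matches, which 20.8% of all windows hold at least once, and 1 AACGG match (17.4% of windows), written CCGTT on the strand shown. Id2 and Myb each held 1 E-box, a motif in 72.3% of windows. The C/EBP motif, present in 10.8% of windows, had 0 matches in these 3 windows and 1 in a window of Gfi1. These matches describe the letters only.

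The C/EBP family encodes basic leucine zipper proteins that bind one motif and differ in when they act. Cebpa (ENSMUSG00000034957.10, chromosome 7, 35119293 to 35121928, plus strand, GRCm38, a gene of 1 exon) is needed to form granulocyte-monocyte progenitors. It was at 31.7, 32.7, 22.3 and 19.1 CPM in controls 1 to 4 and at 41.5, 22.3, 25.6 and 19.7 CPM in deleted libraries 1 to 4. The groups overlapped throughout, with 26.5 ± 6.81 and 27.3 ± 9.8 CPM (SD, n = 4 each) and a log2 fold change of 0.04 ± 0.29 (SE, adjusted p = 0.959).

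Cebpb (ENSMUSG00000056501.3, chromosome 2, 167688915 to 167690418, plus strand, 1 exon), the member that drives emergency granulopoiesis, was at 373, 572, 422 and 180.5 CPM in controls and at 335, 160.4, 138 and 111 CPM in deleted libraries. Controls 1 to 3 lay above every deleted library, and control 4 lay below deleted 1. The means were 387 ± 162 and 186 ± 101 CPM, with a log2 fold change of -1.06 ± 0.42 (adjusted p = 0.265). Cebpd (ENSMUSG00000071637.5, chromosome 16, 15887286 to 15891031, plus strand, 1 exon), which responds to inflammatory cytokines, ran in parallel. It was at 73.7, 132, 103 and 46.6 CPM in controls and at 72.9, 38.4, 43.1 and 31.7 CPM in deleted libraries. Again only control 4 fell among the deleted libraries, and the log2 fold change was -0.94 ± 0.36 (adjusted p = 0.255). On the opposite strand, exons of Tmem189 cover 20.7% of the Cebpb exon and exons of Spidr cover 15% of that of Cebpd, and the library chemistry does not mark strand, so reads there cannot be assigned to either gene.

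Cebpe (ENSMUSG00000052435.6, chromosome 14, 54710360 to 54712174, minus strand), the factor of late granule genes, had the lowest fold change of the 10. It was at 32, 18, 15.6 and 6.68 CPM in controls, from 743, 500, 281 and 141 counts. In deleted libraries it was at 11.6, 6.38, 3.91 and 4.37 CPM, from 301, 241, 96 and 142 counts. Control 4 lay between deleted 1 and 2, and controls 1 to 3 were above all deleted libraries. The log2 fold change was -1.46 ± 0.54 (adjusted p = 0.23), and -1.07 without control 1.

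Spi1 (ENSMUSG00000002111.8, chromosome 2, 91082390 to 91115756, plus strand) encodes PU.1, the ETS factor that both myeloid branches need. It was at 565, 659, 701 and 481 CPM in controls and at 498, 385, 380 and 377 CPM in deleted libraries. Only deleted 1 reached the controls, and then only control 4. The means were 601 ± 98.7 and 409.8 ± 58.7 CPM, a log2 fold change of -0.55 ± 0.15 (adjusted p = 0.14). Spi1 was called lower in 3 of the 16 other fits: by DESeq2 (-0.56, adjusted p = 0.0262), by limma-voom (-0.58, 0.022) and without deleted 1 (-0.70, edgeR adjusted p = 0.0491). In the last of these 3.05% of all genes were called.

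**Figure D1:**
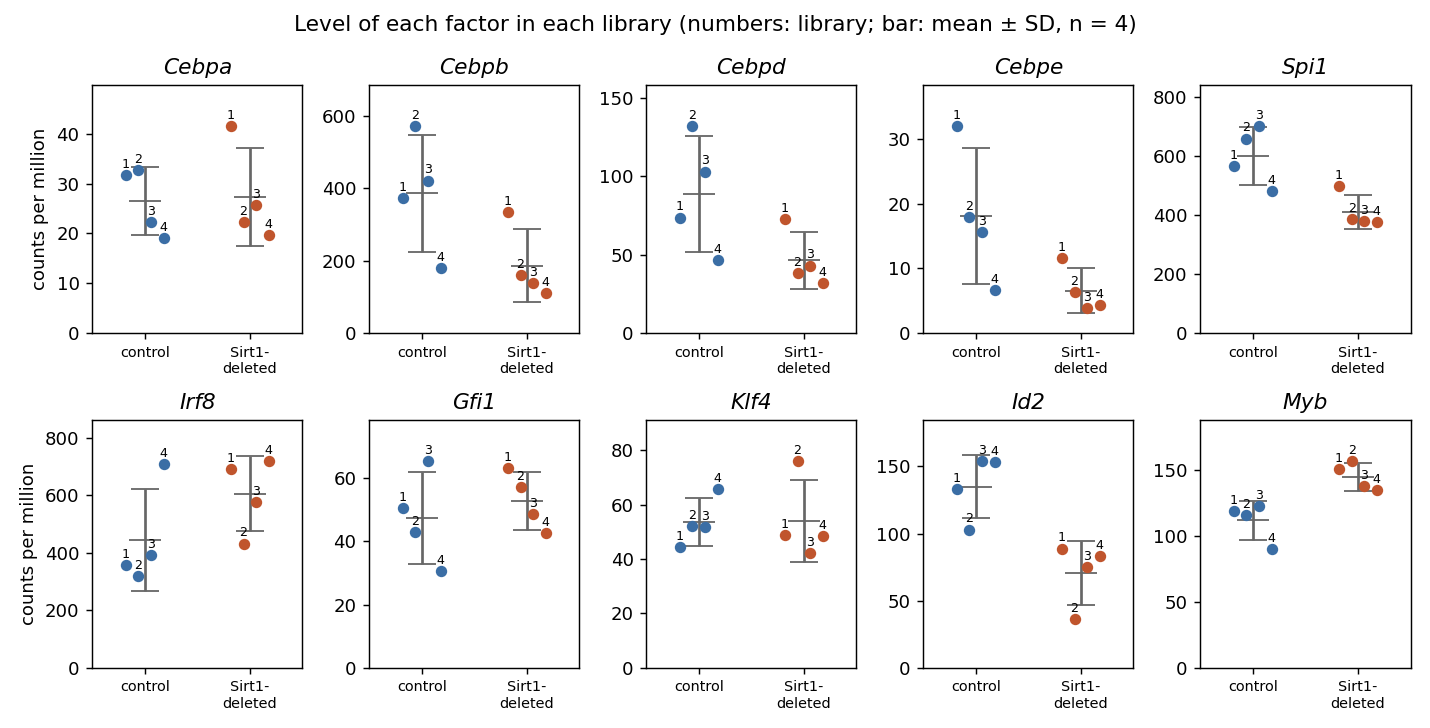
Level of each of the 10 factors in CPM (linear axis from 0) in the 4 control and 4 deleted libraries; points are libraries with their number and bars are mean ± SD. Id2 and Myb are the panels in which the groups do not overlap, and for Cebpb, Cebpd and Cebpe control 4 lies with the deleted libraries.

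Of the monocyte factors, Irf8 (ENSMUSG00000041515.9, chromosome 8, 120736358 to 120756694, plus strand) encodes an interferon regulatory factor that commits progenitors to monocytes and dendritic cells and restrains neutrophil output, and Klf4 a zinc finger factor of monocyte differentiation. Irf8 was at 358, 319, 393 and 708 CPM in controls and at 690.5, 432, 577 and 719 CPM in deleted libraries. Controls 1 to 3 were below every deleted library, and control 4 was above all but deleted 4. The log2 fold change was 0.44 ± 0.27 (adjusted p = 0.478), and 0.76 (adjusted p = 0.127) without control 4. Klf4 (ENSMUSG00000003032.8, chromosome 4, 55527143 to 55532466, minus strand) was at 44.4, 52.1, 51.8 and 65.7 CPM in controls and at 48.8, 76.0, 42.2 and 48.3 CPM in deleted libraries. The groups overlapped fully (log2 fold change 0.01 ± 0.22, adjusted p = 0.988).

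Gfi1 (ENSMUSG00000029275.17, chromosome 5, 107716657 to 107726036, minus strand) encodes a zinc finger repressor that favours neutrophils over monocytes. It was at 50.5, 43.0, 65.4 and 30.6 CPM in controls and at 63.2, 57.1, 48.5 and 42.5 CPM in deleted libraries, with controls at both ends of the range (log2 fold change 0.16 ± 0.25, adjusted p = 0.805).

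Id2 and Myb separated the groups. Of the 10 factors 2 did so, where 13.1% of all genes did, 6.64% higher and 6.44% lower. Id2 (ENSMUSG00000020644.8, chromosome 12, 25093799 to 25097140, minus strand) encodes a protein that lacks a DNA-binding domain and keeps E proteins off DNA. It was at 133, 103, 154 and 153 CPM in controls and at 88.8, 36.3, 75.1 and 83.0 CPM in deleted libraries, with deleted 2 the lowest. The log2 fold change was -0.94 ± 0.28 (edgeR adjusted p = 0.162), with an adjusted p of 0.0275 by DESeq2 and 0.0454 by limma-voom. Without deleted 2 it was -0.75 (edgeR adjusted p = 0.238). In the 6 libraries left without the pair with the fewest detected genes, where 2.13% of all genes were called, 0 of the 10 factors were.

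Myb (ENSMUSG00000019982.14, chromosome 10, 21124935 to 21160984, minus strand) was at 119, 116, 123 and 89.9 CPM in controls and at 151, 157, 138 and 135 CPM in deleted libraries. Every deleted library was above every control, by a small margin between control 3 and deleted 4. The log2 fold change was 0.38 ± 0.13 (adjusted p = 0.205). Once each library's trend with merged exon length (8933 bases for Myb) and GC content was taken out, the value was -0.04 (edgeR adjusted p = 0.963). That correction moved the median of all genes to -0.20, so relative to all genes Myb was then 0.16 higher, and Cebpe 1.24, Cebpd 1.04, Cebpb 0.83, Id2 0.80 and Spi1 0.55 lower.

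**Figure D2:**
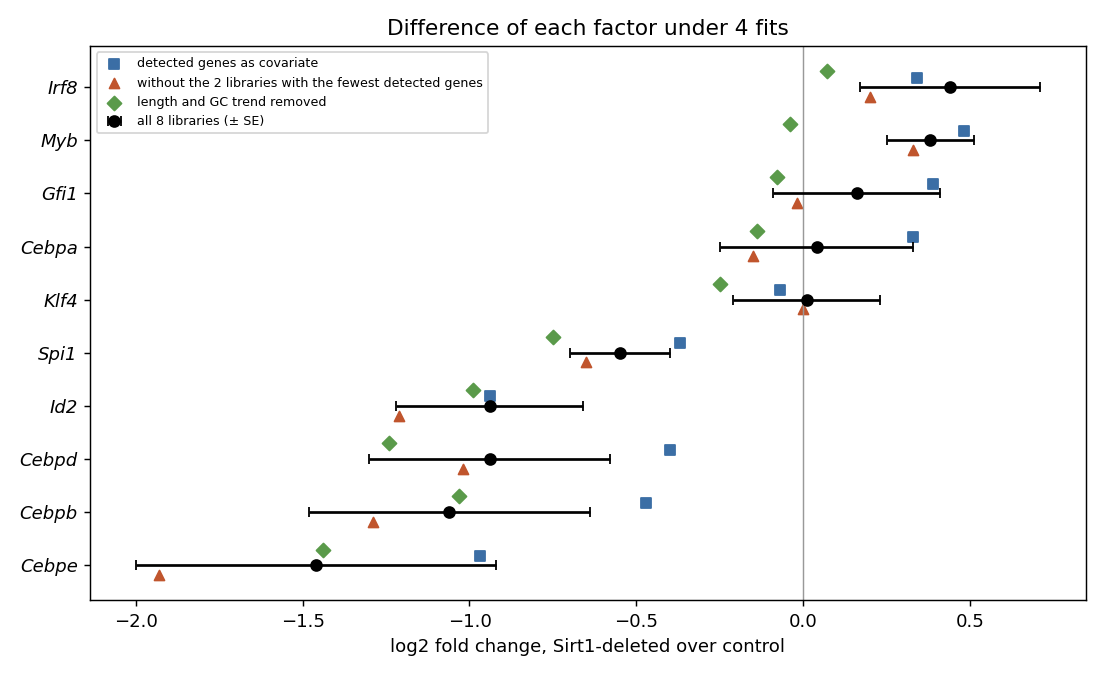
Log2 fold change of each factor, deleted over control, from all 8 libraries (black, ± SE) and from 3 other edgeR fits (colours, no error drawn). Cebpb, Cebpd, Cebpe, Spi1 and Id2 are below 0 in all 4 fits, Cebpb and Cebpd are less negative with detected genes as a covariate, and Myb is below 0 with the length and GC trend removed.

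Levels can be set against each other only per kilobase of exon. The length used is that of exons merged over all annotated transcripts, which can exceed that of the mRNA present. It was 8933 bases for Myb and 7055 for Irf8, against 1504 for Cebpb, so such genes may be placed too low in the order. In controls the order ran from Cebpb at 257 CPM per kilobase and Spi1 at 223, through Irf8 at 63.0, Id2 at 55.6, Cebpd at 23.8, Klf4 at 17.5, Gfi1 at 14.9, Cebpe at 14.5 and Myb at 12.5, to Cebpa at 10.0. Cebpb and Spi1 overlapped in their ranges over libraries, as did Irf8 and Id2, and as did each neighbouring pair from Cebpd down. In deleted libraries Spi1 came first at 152 CPM per kilobase, ahead of Cebpb at 124 and Irf8 at 85.7, whose ranges each overlapped the next above. Id2 followed at 29.0, then Klf4 at 17.7, Gfi1 at 16.6, Myb at 16.3, Cebpd at 12.4 and Cebpa at 10.4, with Cebpe last at 5.30, and each of these overlapped the next. Cebpe stood at percentile 73.9 of tested genes in controls and 54.2 in deleted libraries, whereas Cebpa stood at 67.6 in both.

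Control 4 and deleted 1 were at the edge of their group in several factors and in detected genes. For 6 factors (the 4 C/EBP genes, Spi1 and Gfi1) control 4 was the lowest control and deleted 1 the highest deleted library. The share of all tested genes with this order is not given, so the order cannot be read as particular to these factors. Control 4 had 19917 detected genes, more than controls 1 to 3 (15316 to 17407), and deleted 1 had 16154, fewer than deleted 2 to 4 (19534 to 20342). With the number of detected genes as a covariate the log2 fold change was -0.47 for Cebpb, -0.40 for Cebpd, -0.97 for Cebpe and -0.37 for Spi1, and still -0.94 for Id2.

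**Figure D3:**
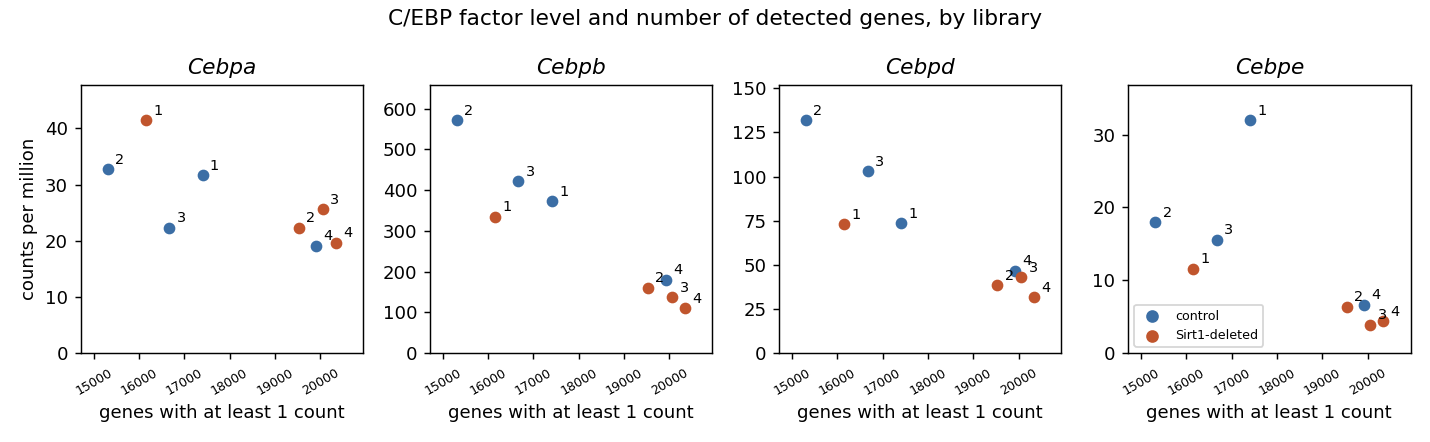
CPM of the 4 C/EBP genes (linear axis from 0) against the number of genes with at least 1 count, 1 point per library with its number, blue for control and orange for deleted. Libraries with 19534 or more detected genes, control 4 among them, have the lowest Cebpb, Cebpd and Cebpe levels.

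The summed level of granulocyte-monocyte progenitor markers was also lowest in control 4 among controls and highest in deleted 1 among deleted libraries. Of the single markers 3 of 10 had this order (Elane, Mpo and Prtn3), which have the highest CPM of the list, and Plac8 had the opposite one. The 10 listed markers, all tested, summed to 23211, 26354, 22467 and 13168 CPM in controls 1 to 4 and to 14959, 12061, 12841 and 8516 CPM in deleted 1 to 4. Of these 9 had negative fold changes and 1, Ms4a3, fell (log2 fold change -1.26 ± 0.14, edgeR adjusted p = 0.0298), where DESeq2 called 7 lower and limma-voom 4. The 12 mature neutrophil markers summed to 2223 to 5565 CPM in controls and 1429.7 to 2871 in deleted libraries. Among them 10 were negative and 0 were called by edgeR, with 6 lower and 1 higher at an unadjusted p under 0.05. DESeq2 called 4 of them lower and limma-voom 5. The 12 monocyte and macrophage markers summed to 1157 to 1970.4 and 733 to 1202. Among these 7 were negative and 0 were called by edgeR, with 2 lower and 0 higher at an unadjusted p under 0.05. DESeq2 called 1 of these lower and limma-voom 0. The 14 stem cell markers summed to 681 to 1178 and 1118 to 1389.7, 13 had positive values and 2 (Kit and Eng) rose by edgeR, where DESeq2 and limma-voom called 9 higher each. The negative one was Ly6a (log2 fold change -1.09, edgeR adjusted p = 0.228), which made up 780.2 of the 1178 CPM in control 1. No marker of these 4 lists was at 0 in all libraries. Of other lineages, 10 of 10 mast cell and basophil, 10 of 11 T and NK cell and 8 of 10 dendritic cell markers tested had negative values, and 7 of 7 megakaryocyte, 8 of 12 B and plasma cell and 2 of 5 erythroid markers positive ones. The mast cell and basophil markers summed to 7228 CPM in control 1, to 1361 to 2436 in the other controls and to 541 to 1497 in deleted libraries. Of the 55 tested in the 6 lists of other lineages 0 were called by edgeR. An edgeR unadjusted p under 0.05 was found for 17, some lower and some higher. DESeq2 called 10 and limma-voom 4. Over all genes 16.2% had an edgeR unadjusted p under 0.05, DESeq2 called 8.87% and limma-voom 8.03%. The part that detected genes or these markers have in the levels of the factors was not tested beyond the covariate.

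Ratios within a library remove what all genes of that library share, but not library differences that affect genes unequally. The detected-gene covariate was not applied to the ratios. Relative to Cebpa, both Cebpe and Cebpb were lower in every deleted library than in any control. Control 4 was still the lowest control in both ratios, and deleted 1 the highest deleted library in that of Cebpb. The log2 ratio of Cebpe to Cebpa, which sets the late granule factor against the early one, was 0.01, -0.86, -0.51 and -1.50 in controls and -1.83, -1.79, -2.69 and -2.16 in deleted libraries. The means differed by -1.40 (exact two-sided permutation p = 0.0286, the smallest that 70 assignments allow, adjusted p = 0.0714 over the 5 ratios). The log2 ratio of Cebpb to Cebpa was 3.55, 4.12, 4.24 and 3.24 in controls and 3.01, 2.84, 2.42 and 2.5 in deleted libraries, a difference of -1.10 with the same p and adjusted p. The 5 ratios were chosen with earlier results of these data known, so their p-values are not those of tests set in advance. Both ratios share Cebpa, and neither passed the adjustment. Without control 1 both did, at -1.16 and -1.17 (exact permutation, adjusted p = 0.0476 each). Their unadjusted p was 0.0286 there, the same as without control 2, 3 or 4, where the adjusted p was 0.0714. The adjusted p was lower without control 1 because the ratio of Spi1 to Gata1 also reached 0.0286, so the pass is not particular to Cebpe or Cebpb. Without any 1 deleted library the adjusted p was 0.143 for both. With the length and GC trend taken out they were -1.18 and -0.89 (exact permutation, adjusted p = 0.143 each).

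The other 3 ratios overlapped. That of Gfi1 to Irf8, which sets the granulocytic against the monocytic factor, was -3.21 ± 0.89 in controls and -3.50 ± 0.48 in deleted libraries (SD, n = 4 each, exact permutation p = 0.571, adjusted 0.714), and the difference of -0.30 was -0.74 without control 4. That of Spi1 to Gata1, which opposes PU.1 to the master factor of red cells and platelets, was 5.85 ± 2.61 and 4.87 ± 0.18 (exact permutation p = 0.6, adjusted 0.714). In its controls Gata1 had 1751 counts in control 1 and 20 in control 3, and the difference of -0.98 was 0.14 without control 3 and -1.96 without control 1 (adjusted p = 0.0476). That of Cebpa to Gata2, a factor of stem and mast cells, was -2.53 ± 0.73 and -2.33 ± 0.66 (exact permutation p = 0.714, adjusted 0.714), and turned from 0.20 to -0.13 without control 1 and to -0.11 without deleted 1.

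**Figure D4:**
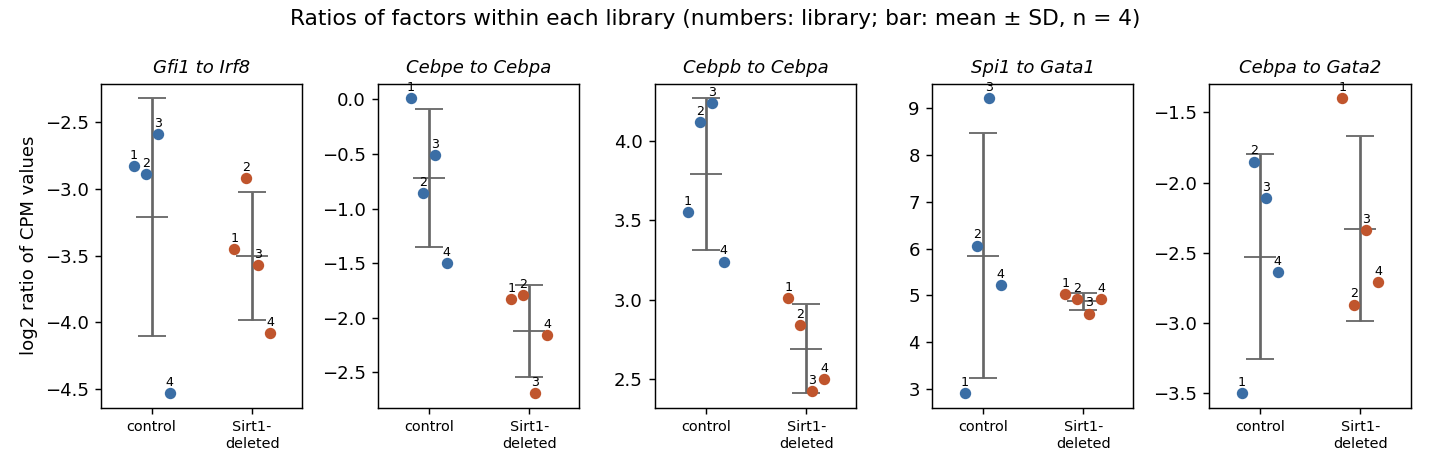
Log2 ratio of CPM values of 5 pairs of factors in each library; points are libraries with their number and bars are mean ± SD, n = 4. The ratios of Cebpe and of Cebpb to Cebpa are lower in all 4 deleted libraries than in all 4 controls, and the other 3 overlap.

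Around the factors 9 lists were described, 4 of known targets and 5 of kin, partners and other factors, with 131 genes in all, of which 129 were tested, 1 was called higher (Kit) and 0 lower by edgeR. Of 17 C/EBP targets of granulocytes, 13 had negative values, the median was -0.74 on the log2 scale, and 6 had an unadjusted p under 0.05 in the lower and 1 in the higher direction (8.6% and 7.55% of all genes). DESeq2 called 5 lower (Ctsg, Elane, Lcn2, Prtn3 and Trem3) and limma-voom 4 (Camp, Lcn2, Prtn3 and Trem3). The C/EBP list shares Mpo, Elane, Prtn3 and Ctsg with the progenitor markers and Lcn2, Camp, Ngp, Ltf, Mmp8, Mmp9 and Csf3r with the neutrophil markers. The other 3 target lists also share genes with the marker lists. Target and marker lists are therefore not separate evidence. Trem3, a myeloid receptor, was at 130.4 ± 23.8 CPM in controls and 54.7 ± 11.9 in deleted libraries (-1.25 on the log2 scale, edgeR adjusted p = 0.0672). The granule protease genes Ctsg and Prtn3 had values of -0.84 and -1.22 (0.0986 and 0.162). Csf3r, the receptor for granulocyte colony-stimulating factor and a target of C/EBP alpha, had a positive value of 0.70 (0.294).

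Of 17 PU.1 targets 11 had negative values, with a median of -0.35 and 6 lower and 0 higher at an unadjusted p under 0.05. DESeq2 and limma-voom called the same 4 lower (Cyba, Fcgr3, Ncf4 and Tyrobp). The Fc receptor gene Fcgr3 had a log2 fold change of -1.19 (edgeR adjusted p = 0.0811). The NADPH oxidase genes Cyba and Ncf4 had -0.87 and -0.49 (0.13 and 0.162). Csf1r, the receptor for macrophage colony-stimulating factor, had 0.76 (0.323).

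Of 15 targets of IRF8 or KLF4 in monocytes and dendritic cells 10 had negative values, with a median of -0.40, 4 lower and 1 higher at an unadjusted p under 0.05. DESeq2 called 4 lower and 1 higher, limma-voom 1 and 1. The cytokine receptor gene Flt3 was at 193 ± 36.2 CPM in controls and 345 ± 35.9 in deleted libraries (0.84 on the log2 scale, edgeR adjusted p = 0.0892). The lipopolysaccharide co-receptor gene Cd14 had -1.67 and Ly6c2, a surface marker of monocytes, -1.23 (0.109 and 0.14). Of 10 MYB targets 6 had positive values, with a median of 0.11. Kit, which is also a sort marker, rose (log2 fold change 1.89 ± 0.17, edgeR adjusted p = 0.0145), the stem cell antigen gene Cd34 had 0.85 (0.081), and the neutrophil elastase gene Elane had -1.16 (0.176).

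Kin of the 10 factors showed no call by edgeR. Among 6 C/EBP relatives and dimer partners the median was -0.21, with 0 at an unadjusted p under 0.05 and 0 called by DESeq2 or limma-voom. Cebpg, which dimerises with the other C/EBP proteins, had 0.40 (edgeR adjusted p = 0.40), and Batf and Atf4 had -0.22 and -0.21 (0.558 and 0.592). Of 16 paralogs 14 were tested, with a median of -0.34 and 4 lower and 0 higher at an unadjusted p under 0.05. DESeq2 and limma-voom called 1 lower each, Mybl2 and Id1. Mybl2, the cell cycle relative of Myb, had -0.54 (edgeR adjusted p = 0.149), Irf5 -0.44 (0.208) and Irf7 -1.54 (0.228), the last with 446 CPM in control 1 and 65.3 to 164 in the other controls.

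Among 20 other myeloid factors 13 had positive values, with a median of 0.25, 2 higher and 1 lower at an unadjusted p under 0.05. DESeq2 called Egr1 higher and Nfil3 lower, and limma-voom Nfil3. Egr1, an immediate early factor of the monocyte branch, was at 348 ± 74.9 and 904 ± 520 CPM (log2 fold change 1.38, edgeR adjusted p = 0.133), Nfil3 had -0.69 (0.139) and Mef2c 0.31 (0.273). Of 17 regulators and cofactors 13 had positive values, with a median of 0.22 and 2 higher and 0 lower at an unadjusted p under 0.05; DESeq2 called 0 and limma-voom 1 lower. The E protein gene Tcf4, whose product ID2 binds, had 0.36, the menin gene Men1 0.42 and the EGR corepressor gene Nab2 -0.82 (0.273, 0.278 and 0.348). Of 17 factors of other lineages 8 had positive values, with a median of -0.15 and 4 higher and 0 lower at an unadjusted p under 0.05. DESeq2 called 2 higher (Nfe2 and Zfpm1) and limma-voom 1 (Nfe2). The megakaryocyte and erythroid factor gene Nfe2 was at 219 ± 14.9 and 309 ± 21.3 CPM (log2 fold change 0.49, edgeR adjusted p = 0.0949), and Zfpm1, the partner of GATA factors, and Bcl11a had 0.63 and 0.85 (0.146 and 0.207).

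**Figure D5:**
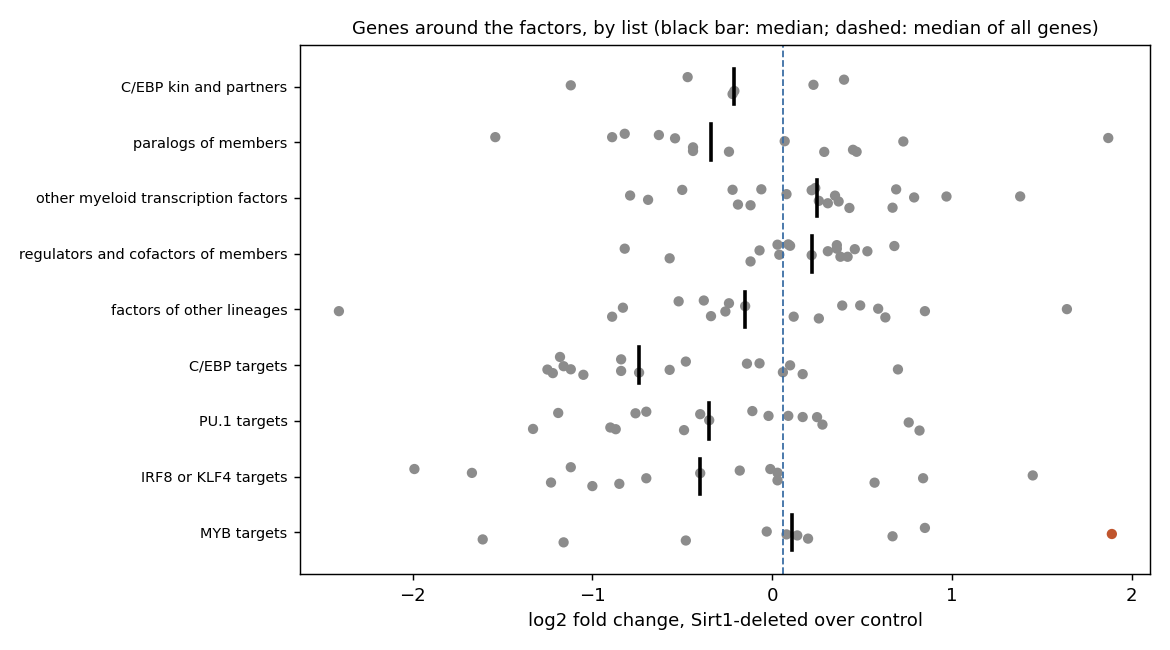
Log2 fold change, deleted over control, of each tested gene (points) in 9 lists around the factors; black bars are list medians, the dashed line is the median of all tested genes, and orange marks a gene called by edgeR. The C/EBP target list has the lowest median, -0.74, and Kit among the MYB targets is the called gene.

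With group means removed, some factors varied together and others did not. Over the 8 libraries, which share their depth and detected-gene differences, Pearson r of log2 CPM was 0.96 for Cebpb and Cebpd, 0.94 for Cebpd and Spi1, 0.92 for Cebpb and Spi1 and 0.91 for Gfi1 and Myb. The most negative pair was Irf8 and Myb at -0.84. Of the 45 pairs 20 were negative, among them 7 of the 9 pairs with Irf8 and 8 of the 9 with Klf4. Among 9430 protein-coding genes averaging 5 CPM or more, the pair most like Cebpb was Edf1 (0.995) and Atp6v0c (0.994), and a gene most like Cebpd was Csf2ra (0.988). Cebpa was most like Hk2 (0.983) and Cyba (0.978), and Cebpe like Pcnt and Cited2 (both 0.982). Spi1 was most like Acd (0.993) and Proser1 (0.975), Irf8 like Mad2l1bp (0.978) and Jaml (0.973), and Gfi1 like Anxa11 (0.98) and Pik3r2 (0.968). Klf4 was most like Nedd8 (0.949) and Klf10 (0.948), Id2 like St6gal1 (0.981) and Sept11 (0.963), and Myb like Cryz (0.99) and Plaur (0.978). With 8 libraries and so many genes searched, values this high describe likeness in these libraries only.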

How the data were processed

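RNA-seq counts of 8 mouse LSK libraries were used as the authors deposited them, as whole raw counts for each gene. Per the labels' protocols, the SMARTer Ultra Low Input kit (version 4) and Nextera XT were used, which mark no strand and carry no molecular identifiers, so PCR copies are counted. Per the submitters' processing notes, HTSeq 0.9.1, STAR 2.5.3, DESeq2 1.20.0, Trim Galore 0.5.0 and bcl2fastq 2.18.0.12 were used, with build GRCm38. Annotation release, feature type and strand setting are not stated there. The 5 summary rows, 33.2 to 40.6% of records per library, entered neither library sizes nor tests. Symbols came from the reference name table (99.09% of identifiers matched without version), positions and union exon lengths from GENCODE M21 on GRCm38, whose gene versions differ for some factors. Columns were matched to samples by title; that of control 4 ends in another letter than its title, and no other title starts alike. Replicates are numbered in order of deposit and pair nothing.

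All 14178 genes passing filterByExpr were fitted with edgeR 4.0.16 (R 4.3.3, quasi-likelihood, TMM, robust, two-sided), called at an adjusted p (Benjamini-Hochberg) under 0.05. CPM uses TMM library sizes; SE is the size of the log2 fold change divided by √F. Ratios are differences of log2 CPM with a prior count of 2, tested by exact permutation over 70 assignments. DESeq2 1.42.0, limma 3.58.1 (voom with quality weights), other size factors, no filter, a detected-gene covariate, a length and GC trend (splines of 5 degrees of freedom), subsets by library title and by detected genes, and leaving out each library were alternatives. The edgeR, DESeq2, limma and trend-removed fits were tested on simulated data. The factors, lists, ratios and rule for named genes (all 10 factors, called genes and the 3 of smallest p per list, the 2 most alike genes) were chosen with earlier results of these data known; Ms4a3, Eng, Csf3r, Csf1r, genes named for a call by DESeq2 or limma-voom and the sort markers were added after values were seen. Single markers and 1 most alike gene are not reported here.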

Additional observations from a re-analysis of the deposited data

Results flagged for a closer look

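Of 30 groups of 4 libraries examined (10 factors and 5 ratios in 2 genotypes), 2 held a library far from the others, and chance flags about 1 in 20. Spi1 was at 498 CPM in deleted 1 and at 377 to 385 in the other deleted libraries. The log2 ratio of Gfi1 to Irf8 was -4.53 in control 4 and -2.89 to -2.59 in the other controls.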

How the results depend on the processing

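Over 16 alternatives, Cebpb (-1.55 to -0.47), Cebpd (-1.29 to -0.40), Cebpe (-1.93 to -0.97), Spi1 (-0.75 to -0.37), Id2 (-1.21 to -0.67) and Irf8 (0.07 to 0.88) kept their sign. Cebpa turned to -0.057 with limma-voom, -0.15 without the 2 libraries of fewest detected genes, -0.0053 in titles starting with 2 or 4 and -0.14 once the trend with length and GC content was removed. Gfi1 turned to -0.024, -0.051 and -0.084 under the last 3 of these, and Klf4 to -0.16, -0.0033, -0.098 and -0.25 under all 4, to -0.0082 with DESeq2 size factors and to -0.066 with the covariate. Myb turned once, to -0.043. Leaving out single libraries gave -0.28 to 0.14 for Cebpa, -0.00026 to 0.32 for Gfi1 and -0.23 to 0.13 for Klf4. The causes were not tested.

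The 0 factors called became 2 with DESeq2 and 2 with limma-voom, and 0 to 1 without single libraries. Of all genes 12 were called, against 1317 with DESeq2, 1139 with limma-voom, 311 without the 2 libraries of fewest detected genes, 1 in titles starting with 2 or 4, and 0 with the covariate or the trend removed. Without single libraries it was 0 to 451, the highest without deleted 1. Without single libraries, ratios ranged from -0.74 to -0.09 for Gfi1 to Irf8, from -1.66 to -1.16 for Cebpe to Cebpa, from -1.28 to -0.94 for Cebpb to Cebpa, from -1.96 to 0.14 for Spi1 to Gata1 and from -0.13 to 0.42 for Cebpa to Gata2. Without control 1 those of Cebpe, Cebpb and Spi1 passed (exact permutation p = 0.0286, adjusted p = 0.0476 each). For Cebpe and Cebpb the exact permutation p was the same without any other single control, where the adjusted p was 0.0714. Subsets of 3 against 3 cannot go below an exact permutation p of 0.1. No paired analysis was possible because the labels give no replicate numbers.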
